A study of Mus musculus with 40 samples.

Results

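The genes described here are the core and linker histone genes of the mouse heart, taken as every symbol of the Hist1 to Hist4 families with at least 10 counts summed over the 40 libraries. The gene set held 52 of the 68 symbols of these families and 52 of 23420 symbols in all. The other 16 had at most 9 counts each, and 8 of them had 0. By class the set held 5 linker histone H1, 11 H2A, 15 H2B, 10 H3 and 11 H4 genes. Their deposited gene models lie on chromosome 13 (40 genes, the Hist1 cluster), chromosome 3 (8 genes, Hist2), chromosome 11 (3 genes, Hist3) and chromosome 6 (1 gene, Hist4h4).

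RNA came from slices of the heart, taken without the right ventricle, of FVB/N mice, either non-transgenic (ntg) or transgenic for the microRNA miR-378a (TG, labelled TG378; the labels used here do not name the promoter of the transgene). There were 3 ntg and 3 TG hearts after a sham operation by the labels (tables for the whole series mark these hearts as without surgery), and 7 ntg and 7 TG hearts after 2 weeks of pressure overload by transverse aortic constriction (TAC). Each of the 20 hearts gave 1 library of oligo(dT)-selected polyadenylated RNA (mRNA) and 1 library of RNA recovered with immunoprecipitated Ago2, the microRNA-binding protein of the RNA-induced silencing complex (RISC), for which the labels name no oligo(dT) step. All mice are labelled male, with an age of 12 weeks per sample and an age range in the description of the series. Defining cardiomyocyte genes (Myh6, Tnnt2, Tnni3, Actc1, Myl2, Ryr2) summed to 67000 to 97400 CPM (counts scaled to library size) in the mRNA libraries.

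The sex-linked genes went against that label. Xist, the RNA of the inactive X chromosome, was at 117 to 142 CPM in the 6 sham mRNA libraries and at 1.03 to 3.48 CPM in the 14 TAC libraries. The summed Y-linked transcripts ran the other way, from 0.216 to 4.88 CPM in sham and from 79.9 to 122 CPM in TAC hearts. Sham and TAC hearts therefore differ by these genes as well as by operation, and the 2 differences cannot be told apart in any comparison of TAC with sham below. Comparisons of TG with ntg within an operation do not cross this divide. Within TAC hearts 1 of 5 sex-linked genes was still higher in TG mRNA and 1 of 5 lower in TG RISC, at an adjusted p below 0.05 in edgeR. Gene counts ran from 9.98 to 25.5 M per mRNA library and from 7.55 to 25.4 M per RISC library, of which the ribosomal RNA precursor Rn45s took 48.5% to 62.3% in RISC. The histone genes supplied 851 to 2815 counts of an mRNA library and 441 to 2033 of a RISC library. In RISC the ntg TAC libraries gave 441 to 1179 histone counts and the TG TAC libraries 1246 to 2033, not scaled for depth. Scaled to library size, their summed levels overlapped, with 44.2 to 71.8 CPM in ntg and 70.6 to 88.1 CPM in TG TAC libraries.

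DNA in the nucleus is wound around an octamer of the core histones H2A, H2B, H3 and H4, and the linker histone H1 binds where the DNA enters and leaves it. Most genes of these clusters are replication-dependent: they have no introns, they are transcribed in S phase, and their messages end in a stem-loop bound by SLBP in place of a poly(A) tail. Some of them also give polyadenylated messages, which are known mainly from cells that have left the cell cycle, as most adult cardiomyocytes have. An oligo(dT)-selected library shows mainly the polyadenylated part of these messages. With Rn45s still present in the mRNA libraries, a remainder of histone message without a tail is possible there. RNA recovered with Ago2 need not carry a tail unless it is selected for one. In whole heart tissue, fewer cells that use a gene and less RNA per cell cannot be told apart.

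RefSeq promoter windows (GRCm38.p6, 250 bases before to 50 after the start) matched 46 of the 52 genes by symbol and gave 47 windows, since 1 H2B gene had 2. The stretches shown are those of 8 of the H4, H2B, H3 and H1 genes called in the comparisons below, while Hist2h2be, Hist1h2bc and Hist2h4, also called, are among the 6 genes with no window and Hist1h4i, Hist1h1d and Hist1h1e are not shown. They run from 110 bases before to 10 bases after the start, 5' to 3'. Capitals mark the letters searched for on both strands, which do not overlap each other in the stretches shown: GGTCCG, the core of the element before H4 genes, ATTTGCAT, the octamer before many H2B genes, CCAAT and TATAAA. Their positions are chr13:23698449-23698568 (minus strand) for Hist1h4c, chr13:23581458-23581577 (plus strand) for Hist1h4d, chr13:23530934-23531053 (plus strand) for Hist1h4h, chr6:136804422-136804541 (minus strand) for Hist4h4, chr3:96269590-96269709 (plus strand) for Hist2h2bb, chr13:23738697-23738816 (plus strand) for Hist1h1c, chr3:96246575-96246694 (plus strand) for Hist2h3c1 and chr3:96239118-96239237 (minus strand) for Hist2h3c2.
Hist1h4c: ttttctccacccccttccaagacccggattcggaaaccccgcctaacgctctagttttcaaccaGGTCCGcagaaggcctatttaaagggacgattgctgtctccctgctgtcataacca
Hist1h4d: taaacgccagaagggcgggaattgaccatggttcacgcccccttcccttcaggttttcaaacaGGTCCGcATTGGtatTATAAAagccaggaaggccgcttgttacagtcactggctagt
Hist1h4h: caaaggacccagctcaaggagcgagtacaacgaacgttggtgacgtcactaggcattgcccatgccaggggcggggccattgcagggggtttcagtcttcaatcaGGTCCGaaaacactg
Hist4h4: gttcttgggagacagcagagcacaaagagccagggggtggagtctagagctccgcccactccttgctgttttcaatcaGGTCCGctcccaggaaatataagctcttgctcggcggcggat
Hist2h2bb: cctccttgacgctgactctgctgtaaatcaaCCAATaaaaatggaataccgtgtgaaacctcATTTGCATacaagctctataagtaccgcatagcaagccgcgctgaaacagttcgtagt
Hist1h1c: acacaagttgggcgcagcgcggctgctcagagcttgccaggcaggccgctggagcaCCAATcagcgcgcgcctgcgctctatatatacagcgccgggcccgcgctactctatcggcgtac
Hist2h3c1: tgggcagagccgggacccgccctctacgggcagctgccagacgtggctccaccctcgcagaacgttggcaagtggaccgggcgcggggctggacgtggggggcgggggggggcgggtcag
Hist2h3c2: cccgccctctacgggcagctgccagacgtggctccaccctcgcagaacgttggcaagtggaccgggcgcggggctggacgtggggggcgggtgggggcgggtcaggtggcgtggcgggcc

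The letters GGTCCG stood in 9 of 10 H4 windows, in 2 windows of the other classes (1 H2B, 1 H3), and in 8.25% of all 32851 promoter windows. ATTTGCAT stood in 7 of 13 H2B and 6 of 11 H2A windows, in none of the H1, H3 and H4 windows, and in 1.74% of all. CCAAT stood in every window of the H1, H2A, H2B and H3 genes and in 3 of 10 H4 windows, against 37.4% of all, and TATAAA in 27 of the 47 windows against 13.6%. In Hist1h4c, Hist1h4d and Hist4h4 the H4 letters lay 46, 47 and 32 bases before the RefSeq start, while in Hist1h4h they ran across it. The windows of Hist2h3c1 and Hist2h3c2 face away from each other on chromosome 3 and were identical at 284 of 285 aligned bases. Reads that fit more than 1 place were not counted, so the level of each gene of such a pair is uncertain. The libraries are not strand-specific, so overlapping and antisense transcripts cannot be separated either.

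A few genes carried most of the histone counts. Hist1h1c, which encodes the linker histone H1.2, held 37.3% of the 52916 counts of the set, and 5 genes held 70.8%, while 24 genes had fewer than 100 counts over all libraries. Per kb of exon, the mean mRNA level was 26.4 CPM per kb for Hist1h1c, 26.1 for the H2B gene Hist1h2bc and 21.7 for the H4 gene Hist1h4h. The next in order were well below them, with 5.54 CPM per kb for Hist1h4i (H4), 4.83 for Hist3h2a (H2A), 3.06 for Hist2h2bb (H2B), 2.60 for Hist2h4 (H4) and 1.98 for Hist1h2ba, an H2B gene known from testis.

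In RISC the order per kb was another. Hist1h1c led again with 11.5 CPM per kb, followed by Hist1h4d with 8.60, Hist2h2bb with 8.49 and Hist1h4h with 7.48. Hist1h4c had 4.35 CPM per kb, Hist2h4 3.90, Hist1h2bc 3.22 and Hist1h1e, which encodes the linker histone H1.4, 2.77. Hist1h4d had rank 9 in mRNA, with 1.93 CPM per kb, and Hist1h2ba had rank 29 in RISC, with 0.249. CPM are scaled within a kind of library, and Rn45s takes a larger share in RISC. Ranks can therefore be set side by side between mRNA and RISC, but the CPM values cannot. The exons of Hist1h1e overlap those of Hist1h2be, so counts of these 2 genes are uncertain.

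A gene was tested where its counts passed the filter on low values, which held for 16 of the 52 genes in mRNA, 23 in RISC and 27 in the model of both. The remaining 25 genes passed in no model and had 12 to 113 counts each over the 40 libraries, with a group mean of at most 0.307 CPM in mRNA and 0.266 in RISC. Passing could depend on the group in which a gene is high, so counts over the tested genes are not counts over the set. Called means an adjusted p below 0.05 by the quasi-likelihood test of edgeR, where the Benjamini-Hochberg adjustment ran over all genes tested. Log2 fold changes (log2 differences) are given with the standard error (SE). Within mRNA and within RISC the p values measure the spread between hearts, which the labels give as separate animals. In the model of both, the mRNA and RISC library of a heart entered as independent libraries, with no term for the heart. The p values of RISC against mRNA and of RISC relative to mRNA therefore do not allow for the shared heart.

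Most of the tested histone genes were higher in RISC than in mRNA, and some of the most abundant ones were lower. Of 27 genes tested, 17 were higher in RISC than in mRNA and 7 were lower, where 82.6% of all 14372 genes were called in either direction, 38.9% as higher and 43.7% as lower. The median log2 ratio was 1.62 for the histone genes and -0.08 for all genes. A gene could pass the filter through the kind of library in which it is high, and 13 genes passed in both kinds taken alone. The direction of a low gene, and with it these counts and the median, was therefore partly set by the filter. The RISC libraries differ from the mRNA libraries in the capture of Ago2, and the labels do not settle whether they differ in oligo(dT) selection as well. The ratio cannot tell the 2 steps apart. By class, 4 of 5 H1 genes were higher and none lower, as were 2 of 3 H3 genes, while 1 of 4 H2A genes was higher and 2 lower. Of 7 H2B genes 4 were higher and 3 lower, and of 8 H4 genes 6 were higher and 2 lower. Of 9 genes whose model holds coding bases only, 6 were higher and 2 lower, and of 10 with at least 500 noncoding exon bases, 6 were higher and 2 lower.

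The highest ratios were those of linker histone and H4 genes, among them low genes that could pass the filter through their RISC libraries. Hist1h1b (H1.5) had a log2 ratio of 3.46 (SE 0.30), with 0 to 0.242 CPM over the TAC and 0 to 0.216 over the sham mRNA libraries, and 0.223 to 1.38 CPM over all RISC libraries. Hist1h1d (H1.3) had 3.18 (SE 0.20) and Hist1h1e 2.79 (SE 0.13). Hist1h1c was the only H1 gene tested that was not called, at -0.11 (SE 0.05, adjusted p = 0.0534). Among H4 genes Hist1h4d (3.21, SE 0.18), Hist1h4c (3.10, SE 0.25) and Hist1h4f (2.94, SE 0.39) were highest, and the H3 gene Hist1h3f had 2.99 (SE 0.36).

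The genes lower in RISC included some with the highest mRNA levels of their class. Hist1h2bc had a log2 ratio of -1.95 (SE 0.12), and its mRNA libraries held 12.2 to 32.4 CPM. Hist1h2ba had -1.91 (SE 0.32), and the low H2A gene Hist1h2af -1.02 (SE 0.45, adjusted p = 0.0344). The H4 genes Hist1h4i (-0.64, SE 0.17) and Hist1h4h (-0.57, SE 0.15) stood apart from the other 6 tested H4 genes, which were all higher in RISC. The H2B gene Hist2h2be had -0.37 (SE 0.14) and Hist3h2a -0.36 (SE 0.10), while Hist2h2ab (-0.81, SE 0.46) and Hist2h3c2 (-0.36, SE 0.35) missed the threshold. All p values in these 2 paragraphs are from edgeR's test, and for the called genes other than Hist1h2af and Hist2h2be the adjusted p was at most 0.00609.

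**Figure D1:**
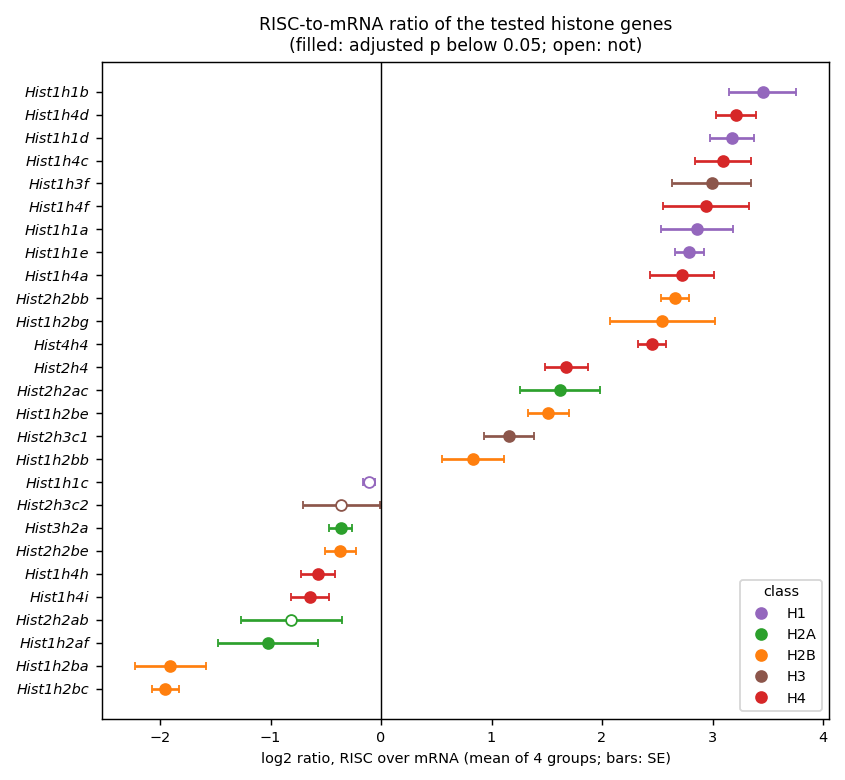
Log2 ratio of RISC to mRNA level (x axis) of the 27 tested histone genes (y axis), from the model of all 40 libraries, as points with SE bars coloured by class. The 17 filled points right of 0 reach 3.46 (Hist1h1b), and Hist1h2bc lies lowest at -1.95.

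The first comparison asked what the transgene does in sham hearts. In mRNA, TG sham hearts had higher levels than ntg sham hearts in 7 of 16 tested histone genes and a lower level in none, where 18.6% of all 14141 genes were called, 9.17% as higher and 9.41% as lower. The median log2 fold change was 0.50 for the 16 genes and -0.01 for all genes, and 15 of the 16 were positive, against 48.8% of all genes. A low gene could pass the filter through the TG sham libraries, which favours a positive value. The summed level of all 52 genes was 78.3 to 91.8 CPM in ntg and 106 to 125 CPM in TG sham libraries. The 8 genes of the Hist2 cluster on chromosome 3 together went from 4.88 to 6.33 CPM in ntg to 11.2 to 15.5 CPM in TG hearts.

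Among H3 genes, Hist2h3c1 (gene model at chr3:96246685-96248509, plus strand, mm10) was at 0.288, 0.324 and 0.271 CPM in the ntg and at 0.606, 1.27 and 1.26 CPM in the TG sham hearts. Its neighbour Hist2h3c2 (chr3:96238108-96239127, minus strand) was at 0.0959, 0.432 and 0.0904 CPM in ntg and at 0.660, 0.916 and 0.809 CPM in TG. The TG libraries lay above the ntg libraries in both genes. Their log2 fold changes were 1.76 (SE 0.49, adjusted p = 0.0135) and 1.96 (SE 0.60, adjusted p = 0.0249) by edgeR's test. These levels are low, and every other H3 gene was too low to be tested in mRNA. Both genes had their highest mean in the TG sham hearts, through which they could pass the filter. In this comparison neither got a p with only the groups compared, and Hist2h3c2 got none with the filter blind to groups.

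Among H2B genes, Hist2h2be (chr3:96221121-96223738, plus strand) was at 3.45, 2.70 and 2.80 CPM in ntg and at 6.66, 7.68 and 7.46 CPM in TG sham hearts. The groups stood far apart, with a log2 difference of 1.28 (SE 0.20, adjusted p = 8.49e-05 in edgeR's test). Hist2h2bb (chr3:96269700-96270192, plus strand) went from 0.576, 0.863 and 0.542 CPM to 1.65, 1.62 and 2.07 CPM. This was a log2 difference of 1.42 (SE 0.39, adjusted p = 0.0124, edgeR), again with no overlap. Hist1h2bc (chr13:23684199-23692480, plus strand) was at 14.9, 16.4 and 14.5 CPM in ntg and 20.9, 21.8 and 30.2 CPM in TG, a log2 difference of 0.66 (SE 0.21, adjusted p = 0.0276, edgeR).

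The linker histone gene Hist1h1c (chr13:23738807-23740367, plus strand) rose by less but with little spread. It was at 32.3, 35.0 and 29.1 CPM in ntg and at 43.5, 43.0 and 43.3 CPM in TG sham hearts, a log2 difference of 0.43 (SE 0.10, adjusted p = 0.00257, edgeR). Hist1h4i, the called H4 gene (chr13:22040816-22041352, minus strand), went from 1.92, 2.59 and 2.80 CPM to 3.69, 4.16 and 4.31 CPM. Its log2 difference was 0.72 (SE 0.23, adjusted p = 0.0289, edgeR). The other tested H4 genes did not pass, and Hist1h4h had a negative value of -0.40 (SE 0.29).

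Markers of fat cells moved with this comparison. Of 7 adipocyte markers tested, 5 were lower in TG sham hearts, and their summed mRNA level was 842 to 1030 CPM in ntg and 366 to 464 CPM in TG sham libraries, with none of the 7 at 0. With the adipocyte level of each library as a covariate, 2 of the 7 histone genes kept their call: Hist2h2be (log2 fold change 1.00, adjusted p = 0.0480) and Hist2h3c2 (3.15, adjusted p = 0.0188), both in edgeR. Of the 5 that lost it, Hist2h2bb had 1.34 (SE 0.54), Hist2h3c1 1.36 (SE 0.71), Hist1h2bc 0.45 (SE 0.30), Hist1h1c 0.29 (SE 0.14) and Hist1h4i 0.08 (SE 0.28). The covariate (a mean log2 level) was at least 5.22 in ntg and at most 2.52 in TG sham libraries, so it and the genotype cannot be told apart in sham hearts. Of the other marker lists 3 of 6 cardiomyocyte, 2 of 8 macrophage, 2 of 7 fibroblast, 1 of 7 endothelial, 1 of 7 lymphocyte and 1 of 4 smooth muscle markers were lower and none higher, and their part in the result was not tested. The calls of Hist1h2bc, Hist2h2bb, Hist2h3c1, Hist2h3c2 and Hist1h4i were each lost without 1 or more of the sham hearts, and without ntg replicate 1 or 3 only 3 genes were called.

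**Figure D2:**
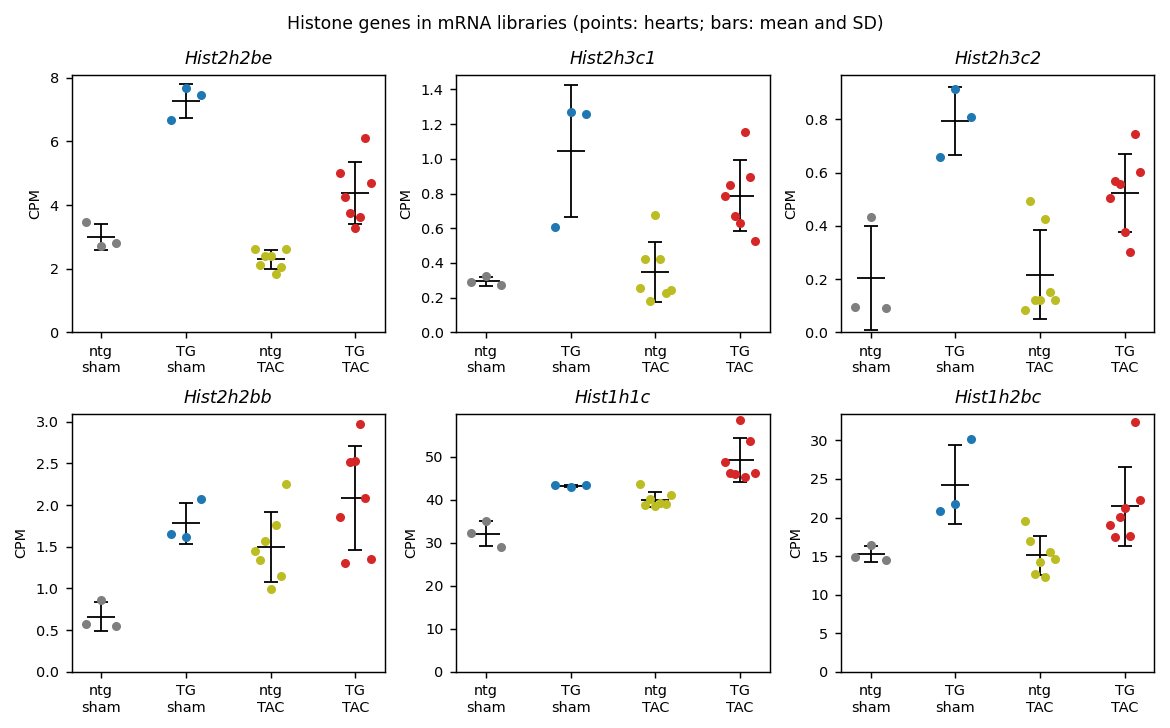
Level in CPM (y axis) of 6 histone genes in each mRNA library (points), by group (x axis), with the mean and SD of the group as bars. In Hist2h2be the ntg sham hearts lie at 2.70 to 3.45 CPM and the TG sham hearts at 6.66 to 7.68 CPM.

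Under pressure overload 5 of these genes were higher in TG again, in other animals. In mRNA of TAC hearts the TG level was higher for 5 of 16 tested genes and lower for 1, where 25.3% of all genes were called, 13.5% as higher and 11.8% as lower. The median log2 fold change was 0.26, against 0.00 for all genes. The summed level of all 52 genes was 82.8 to 105 CPM in ntg and 99 to 139 CPM in TG TAC mRNA libraries, which overlapped. The 5 higher genes were Hist1h1c, Hist1h2bc, Hist2h2be, Hist2h3c1 and Hist2h3c2. They are 5 of the 7 called in sham hearts and 5 of the 6 called in TAC hearts. The share of all genes called in both comparisons was not measured, so this overlap cannot be set against that of genes in general.

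Hist2h2be ran from 1.82 through a median of 2.40 to 2.63 CPM in 7 ntg TAC hearts, and from 3.28 through 4.26 to 6.10 CPM in 7 TG TAC hearts. Every TG library lay above every ntg library, with a log2 difference of 0.93 (SE 0.13, adjusted p = 1.36e-05, edgeR). Hist1h1c ran from 38.5 through 39.3 to 43.6 CPM in ntg and from 45.3 through 46.1 to 58.5 CPM in TG, also with no overlap. Its log2 difference was 0.30 (SE 0.06, adjusted p = 0.000748, edgeR). Hist1h2bc ran from 12.2 through 14.6 to 19.5 CPM in ntg and from 17.5 through 20.1 to 32.4 CPM in TG, where the groups overlapped (0.51, SE 0.13, adjusted p = 0.00664, edgeR).

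The H3 pair overlapped between groups in TAC hearts. Hist2h3c1 ran from 0.180 through 0.255 to 0.678 CPM in ntg and from 0.526 through 0.788 to 1.15 CPM in TG, or 1.12 on the log2 scale (SE 0.29, adjusted p = 0.00560, edgeR). Hist2h3c2 ran from 0.0850 through 0.123 to 0.493 CPM in ntg and from 0.303 through 0.559 to 0.744 CPM in TG, a log2 difference of 1.22 (SE 0.36, adjusted p = 0.0152, edgeR). The 5 calls held when any 1 heart was left out. Those of Hist1h1c, Hist1h2bc, Hist2h2be and Hist2h3c1 also held under all 8 other settings tried. Hist2h3c2 got no p under 2 of the 8, the filter blind to groups and the fit of only the groups compared, and its highest levels were those of the TG sham hearts, through which a low gene could pass the filter. Hist2h2bb, called in sham hearts, had 0.45 (SE 0.20, adjusted p = 0.105, edgeR) in TAC hearts.

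The gene that was lower in TG TAC mRNA was Hist1h4h (chr13:23531044-23531521, plus strand). It ran from 6.18 through 12.3 to 14.9 CPM in ntg and from 5.39 through 6.99 to 11.6 CPM in TG TAC hearts, and the groups overlapped. The log2 fold change was -0.56 (SE 0.19, adjusted p = 0.0363, edgeR). The call was lost when any 1 of 9 of the 14 TAC hearts was left out, where the adjusted p reached 0.0728 and the log2 fold change stayed between -0.67 and -0.49. It was also lost without a filter on low counts and with only the groups compared.

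Whether the transgene effect itself differed between TAC and sham hearts was tested as an interaction. In mRNA no histone gene passed in edgeR or in DESeq2, 1 of 16 had an unadjusted p below 0.05 in each (Hist2h2bb in edgeR, -0.97, SE 0.44), and 0.0849% of all genes were called (0.0707% as higher, 0.0141% as lower). In 15 of 16 tested genes the interaction was negative, with a median of -0.22, where 52.5% of all genes were positive with a median of 0.01. The genes share the same hearts, and a low gene that passed the filter through the TG sham libraries is pushed toward a negative value. This count is therefore not a test.

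Markers of other cell types moved with the comparison in TAC mRNA as well. In TG hearts 5 of 8 macrophage, 5 of 7 endothelial, 2 of 7 fibroblast, 2 of 7 adipocyte and 1 of 7 lymphocyte markers were lower and none higher, while 1 of 6 cardiomyocyte markers was higher and 1 lower. The 1 tested erythroid and the 4 smooth muscle markers were not called. The summed macrophage level was 419 to 490 CPM in ntg and 342 to 474 CPM in TG libraries, the endothelial level 1190 to 1280 and 1030 to 1150 CPM, and the adipocyte level 501 to 824 and 443 to 598 CPM, with no marker at 0. With the adipocyte level as a covariate all 6 histone calls were kept, and the part of the other lists was not tested.

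**Figure D3:**
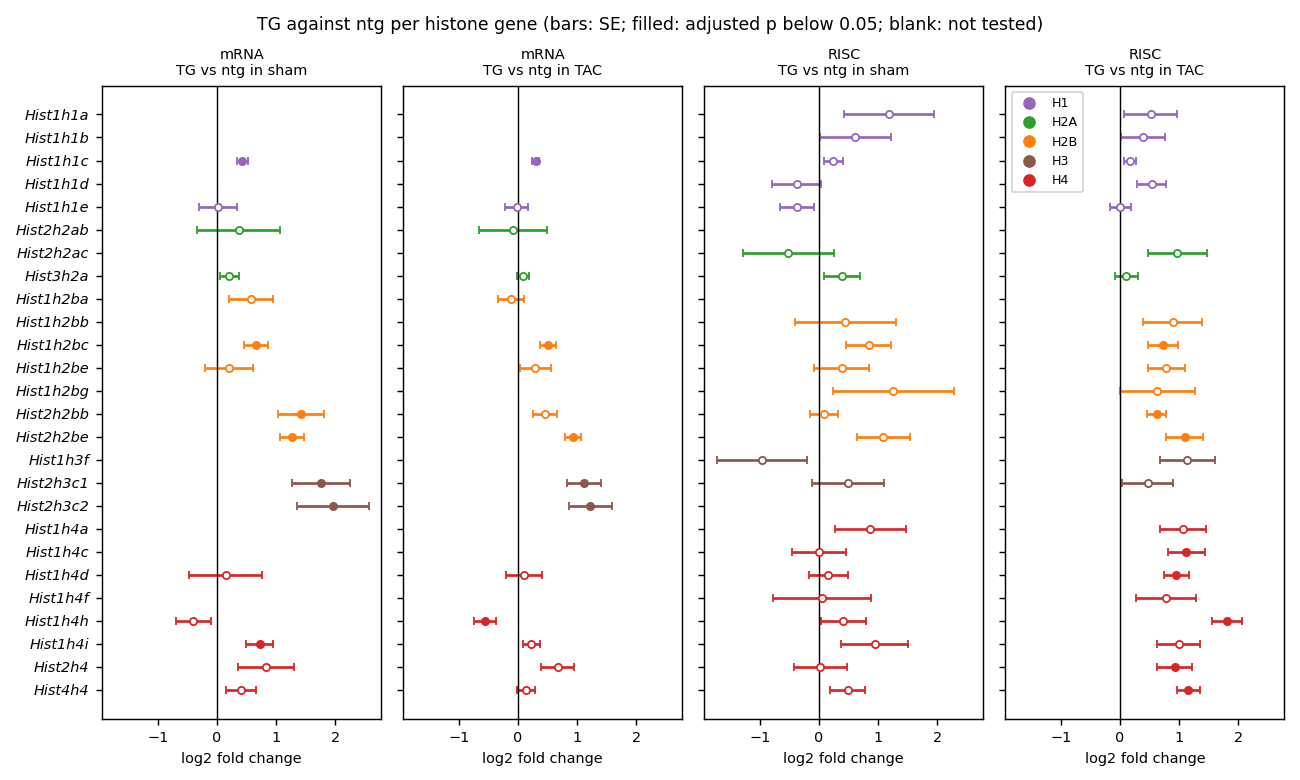
Log2 fold change of TG against ntg (x axis, SE bars) of each tested histone gene (y axis, coloured by class) in mRNA and RISC libraries of sham and of TAC hearts. Filled points were called: 7 in mRNA of sham, 6 in mRNA of TAC, none in RISC of sham and 8 in RISC of TAC hearts, where all 23 points lie right of 0. In that panel a low gene could pass the filter through the TG TAC libraries, which favours the right side.

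In RNA bound to Ago2 the transgene comparison was called in TAC hearts and not in sham hearts. In sham RISC libraries none of 23 tested genes passed in edgeR or in DESeq2, 2 had an unadjusted p below 0.05 in each, and 5.81% of all 13451 genes were called, 2.71% as higher and 3.10% as lower. The median log2 fold change was 0.39 against -0.01 for all genes. The summed histone level was 43.6 to 47.6 CPM in ntg and 52.6 to 60.4 CPM in TG sham RISC libraries.

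In TAC hearts 8 of 23 tested genes were higher in TG RISC libraries and none was lower, where 15.2% of all genes were called, 7.78% as higher and 7.46% as lower. All 23 log2 fold changes were positive, against 50.8% of all genes, with a median of 0.78 against 0.01. A low gene could pass the filter through the TG TAC libraries, which favours a positive value, so this count is not a test. Of the 8, 5 were H4 genes and 3 were H2B genes, while none of 5 H1, 2 H2A and 2 H3 genes passed. The summed H4 level ran from 6.92 to 17.7 CPM in ntg and from 19.0 to 30.0 CPM in TG TAC hearts. In mRNA of the same hearts the H4 sum overlapped, with 10.9 to 22.4 CPM in ntg and 12.5 to 21.6 CPM in TG.

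Hist1h4h led the H4 genes. In RISC it ran from 0.544 through 1.55 to 3.95 CPM in ntg and from 4.31 through 6.14 to 8.91 CPM in TG TAC hearts. The groups did not overlap, and the log2 fold change was 1.81 (SE 0.26, adjusted p = 1.96e-05, edgeR). Hist4h4 (chr6:136801553-136804431, minus strand) ran from 1.68 through 3.04 to 5.06 CPM in ntg and from 4.80 through 7.92 to 9.39 CPM in TG. Its lowest TG heart lay just under the highest ntg heart, and the log2 fold change was 1.15 (SE 0.19, adjusted p = 6.54e-05, edgeR).

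Hist1h4d (chr13:23581602-23581913, plus strand) ran from 0.811 through 2.40 to 3.63 CPM in ntg and from 3.64 through 4.53 to 5.26 CPM in TG TAC hearts. The groups met without overlapping, with a log2 difference of 0.95 (SE 0.21, adjusted p = 0.00166, edgeR). Hist1h4c (chr13:23698138-23698449, minus strand) ran from 0.109 through 0.998 to 1.55 CPM in ntg and from 0.928 through 2.28 to 3.25 CPM in TG, a log2 difference of 1.12 (SE 0.31, adjusted p = 0.0125, edgeR). Hist2h4 (chr3:96262970-96263317, minus strand) had 0.92 (SE 0.29, adjusted p = 0.0291, edgeR), with 0.374 through 1.34 to 1.74 CPM in ntg and 1.15 through 2.05 to 2.81 CPM in TG. The last 2 genes overlapped between groups.

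The 3 called H2B genes were Hist2h2bb, Hist2h2be and Hist1h2bc. Hist2h2bb ran from 1.93 through 3.06 to 3.97 CPM in ntg and from 4.28 through 4.76 to 5.44 CPM in TG TAC hearts, with no overlap. Its log2 difference was 0.62 (SE 0.16, adjusted p = 0.00722, edgeR). Hist2h2be ran from 0.120 through 0.776 to 1.96 CPM in ntg and from 1.38 through 1.69 to 2.37 CPM in TG, a log2 difference of 1.09 (SE 0.31, adjusted p = 0.0147, edgeR). Hist1h2bc ran from 0.218 through 1.96 to 3.37 CPM in ntg and from 2.47 through 3.14 to 3.60 CPM in TG, a log2 difference of 0.73 (SE 0.25, adjusted p = 0.0425, edgeR). Hist1h2bc, Hist2h2be and Hist1h4h were called in both mRNA and RISC of TAC hearts, Hist1h4h in opposite directions. Markers of cell types moved in RISC of TAC hearts as well. In TG hearts 3 of 6 cardiomyocyte and 1 of 8 macrophage markers were higher and none lower, and 1 of 7 fibroblast markers was lower. Of 7 endothelial markers 1 was higher and 1 lower. No adipocyte or smooth muscle marker was called, and the part of the called lists was not tested.

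These RISC libraries also differed in how the level of a gene depended on its length. Of the 8 called genes, 6 have 312 to 728 exon bases, while Hist2h2be has 2618 and Hist4h4 2879. The slope of the log2 level, taken relative to the mean of each gene, on log2 exon length ran from 0.0192 to 0.125 in ntg and from -0.107 to 0.0127 in TG TAC RISC libraries, without overlap. With that slope as a covariate no histone gene was called in edgeR, 3 had an unadjusted p below 0.05, 18 of 23 stayed positive with a median of 0.59, and 181 genes were called in all. The median SE rose from 0.312 to 0.519, and Hist1h4h kept a log2 difference of 1.61 (SE 0.42, adjusted p = 0.0515, edgeR). Slope and group go together in these hearts, so they cannot be told apart in this comparison. The calls of Hist1h2bc and Hist2h4 were also lost without 1 of 10 and 1 of 6 hearts.

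**Figure D4:**
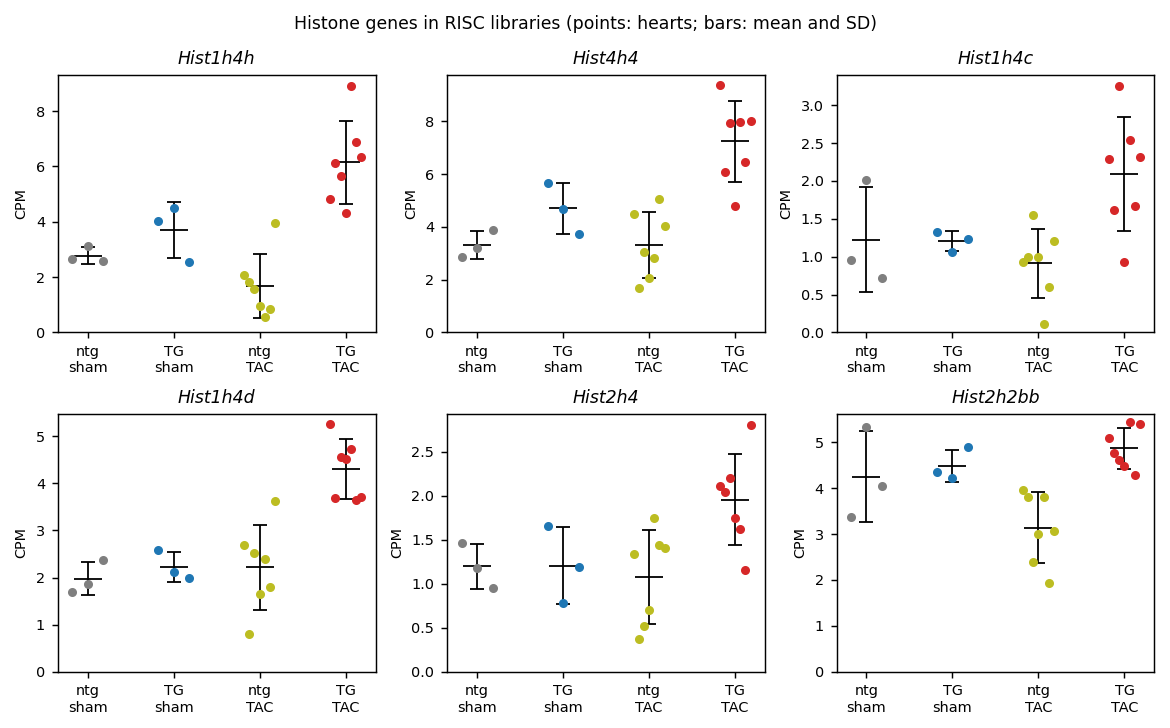
Level in CPM (y axis) of 6 histone genes in each RISC library (points), by group (x axis), with the mean and SD of the group as bars. In Hist1h4h the 7 ntg TAC hearts lie at 0.544 to 3.95 CPM and the 7 TG TAC hearts at 4.31 to 8.91 CPM.

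The interaction in RISC passed for no histone gene in edgeR or DESeq2, where 0.342% of all genes were called (0.320% as higher, 0.0223% as lower). An unadjusted p below 0.05 was found for 2 of 23 genes in edgeR and for 4 in DESeq2. The 2 genes were Hist1h4h, with a TG effect 1.40 (SE 0.47) higher in TAC than in sham hearts, and Hist1h3f, with 2.11 (SE 0.89). The calls in TAC hearts and their absence in sham hearts are therefore not shown to differ.

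The RISC level relative to the mRNA level differed between the genotypes for the H4 gene Hist1h4h. In TAC hearts 2 of 27 genes had a higher TG level once the change in mRNA was taken off, where 0.946% of all 14372 genes were called, 0.682% as higher and 0.264% as lower. Hist1h4h had a relative log2 difference of 2.36 (SE 0.34, adjusted p = 3.88e-05, edgeR), from a negative value in mRNA and a positive one in RISC. It kept the call under every setting tried and without any 1 heart, between 1.94 and 2.73. With the length slope as a covariate it had 1.94 (SE 0.34, adjusted p = 0.00156, edgeR). This covariate had 1 coefficient for both kinds of library, and the slopes of the mRNA libraries of TAC hearts overlapped between genotypes. Slope and group in RISC are therefore not taken apart by it. Hist4h4 had 1.01 (SE 0.26, adjusted p = 0.0427, edgeR), and that call was lost without any 1 of 11 hearts and with the length slope (0.65, adjusted p = 0.431).

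In sham hearts Hist1h4h had a relative log2 difference of 0.81 (SE 0.50, adjusted p = 0.610, edgeR). Its sham mRNA level was 12.4, 13.9 and 12.0 CPM in ntg and 11.6, 7.39 and 9.97 CPM in TG, and its RISC level was 2.64, 3.11 and 2.57 CPM in ntg and 4.02, 4.50 and 2.56 CPM in TG. Over the 27 genes the median relative change in TAC hearts was 0.49, against 0.01 for all genes, and all 8 tested H4 and all 7 tested H2B genes were positive. A low gene could pass the filter through the TG TAC RISC libraries here as well, which favours a positive value. In sham hearts no gene was called relative to mRNA in edgeR or DESeq2 (1 unadjusted p below 0.05 in each), where 0.244% of all genes were called, 0.167% as higher and 0.0765% as lower.

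**Figure D5:**
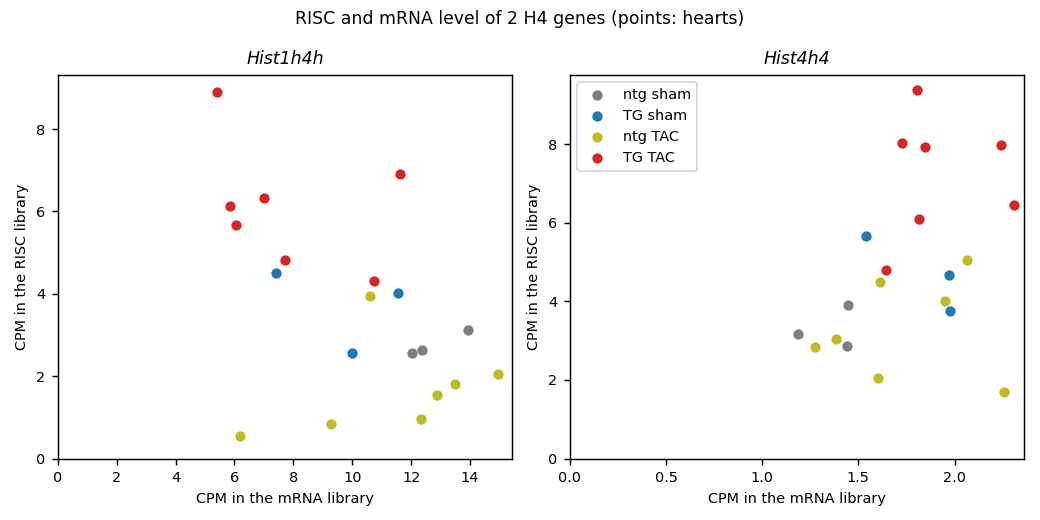
Level of Hist1h4h and Hist4h4 in the RISC library (y axis, CPM) against the mRNA library (x axis, CPM) of each of the 20 hearts, coloured by group. For Hist1h4h the TG TAC hearts lie at 5.39 to 11.6 CPM in mRNA and at 4.31 to 8.91 CPM in RISC, above the ntg TAC hearts in RISC.

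TAC against sham, which crosses the difference in sex-linked genes, called few histone genes. In ntg hearts 2 of 16 tested genes were higher in mRNA after TAC and none lower, where 17.7% of all genes were called, 8.41% as higher and 9.31% as lower. Hist1h1c had 0.32 (SE 0.08, adjusted p = 0.00870) and Hist2h2bb 1.20 (SE 0.35, adjusted p = 0.0201), both in edgeR. Hist2h2bb ran from 0.986 through 1.44 to 2.25 CPM in ntg TAC hearts, above the 3 ntg sham hearts given before. Both calls were lost without ntg sham replicate 3, and neither was kept with the adipocyte level as a covariate, where Hist2h2bb had 1.13 (SE 0.47, against 0.35 without the covariate) and Hist1h1c 0.20 (SE 0.11). Marker lists moved with this comparison: 4 of 7 fibroblast, 2 of 8 macrophage and 2 of 7 endothelial markers were higher in ntg hearts after TAC, and 5 of 6 cardiomyocyte, 2 of 7 adipocyte and 1 of 4 smooth muscle markers were lower. The summed fibroblast level was 1230 to 1460 CPM in ntg sham and 2060 to 3020 CPM in ntg TAC libraries, and the part of these lists was not tested.

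In TG hearts 1 of 16 genes was called in mRNA after TAC, where 13.1% of all genes were called, 6.57% as higher and 6.56% as lower. Hist2h2be fell by 0.73 on the log2 scale (SE 0.15, adjusted p = 0.00312, edgeR), and its 7 TG TAC hearts all lay below the 3 TG sham hearts. In ntg hearts the same gene had -0.38 (SE 0.19, adjusted p = 0.172, edgeR), also without overlap. So its level was lowest in ntg TAC hearts and highest in TG sham hearts.

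In RISC, TAC against sham gave 1 of 23 genes in ntg hearts, where 10.9% of all genes were called, 5.54% as higher and 5.39% as lower. This was Hist1h1c, with 14.1, 15.4 and 13.6 CPM in sham and 16.1 through 18.6 to 26.3 CPM in TAC hearts (0.41, SE 0.14, adjusted p = 0.0461, edgeR), and the call was lost without any 1 of 13 hearts. In TG hearts 3 of 23 genes were higher, where 8.56% of all genes were called, 4.72% as higher and 3.84% as lower. Hist1h1d went from 0.826, 1.06 and 1.33 CPM to 1.92 through 2.81 to 4.10 CPM (1.42, SE 0.35, adjusted p = 0.00867, edgeR). Hist1h1e went from 3.80, 3.67 and 2.61 CPM to 5.23 through 6.99 to 7.99 CPM (1.02, SE 0.24, adjusted p = 0.00647, edgeR). Hist1h4d went from 2.59, 2.11 and 1.99 CPM to 3.64 through 4.53 to 5.26 CPM (0.95, SE 0.27, adjusted p = 0.0247, edgeR). TAC lay above sham in every library of these 3 genes in TG hearts, and each call was lost without 1 or more of the TG sham hearts. All 5 tested H1 genes had a positive value in both genotypes, with medians of 0.64 in ntg and 0.60 in TG. The low ones among them could pass the filter through the TAC libraries. In RISC of ntg hearts 5 of 7 fibroblast, 2 of 7 endothelial and 1 of 8 macrophage markers were higher after TAC. There 4 of 6 cardiomyocyte and 2 of 7 adipocyte markers were lower. In TG hearts 4 of 7 fibroblast, 2 of 7 endothelial and 4 of 8 macrophage markers were higher, and 1 of 6 cardiomyocyte markers was lower. The part of these lists was not tested.

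Relative to mRNA, TAC against sham gave no called histone gene in either genotype, in edgeR or in DESeq2. An unadjusted p below 0.05 was found for 3 of 27 genes in ntg and 6 in TG hearts in edgeR, and for 3 and 5 in DESeq2, where 0.0209% (0.0139% as higher, 0.00696% as lower) and 0.0278% (all of them higher) of all genes were called.

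Histone genes often lie in pairs with a shared promoter region, and 8 pairs had starts at most 1000 bases apart on opposite strands. Hist2h2be and the H2A gene Hist2h2ac start 277 bases apart on chromosome 3. Per kb of exon, their mean mRNA levels in TG sham hearts were 2.77 and 1.14 CPM per kb, and in ntg sham hearts 1.14 and 0.43. In TG TAC hearts they were 1.68 and 0.77 CPM per kb, and in ntg TAC hearts 0.88 and 0.84, so Hist2h2ac was not higher in TG there. The sham mRNA libraries held only 3, 2 and 0 counts of Hist2h2ac in ntg and 7, 2 and 9 in TG. Hist1h2bc and the H2A gene Hist1h2ac start 240 bases apart on chromosome 13. Their mean mRNA levels over the 4 groups were 26.1 and 0.0627 CPM per kb. The H2A gene of either pair was too low to be tested in mRNA.

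Replacement histones, many of which are made outside S phase from polyadenylated messages, were measured for comparison. Of 11 tested in mRNA, 1 was called in TG sham hearts and 2 in TG TAC hearts, beside 18.6% and 25.3% of all genes. In sham hearts it was H2afv, an H2A.Z gene, higher with 0.43 (SE 0.09, adjusted p = 0.00230, edgeR). In TAC hearts H2afv had 0.42 (SE 0.06) and the centromeric H3 gene Cenpa -0.27 (SE 0.08), and both were called. In RISC of TAC hearts H2afj, an H2A variant gene, had 1.04 (SE 0.27, adjusted p = 0.00736) and H2afv 0.62 (SE 0.12, adjusted p = 0.000626), both higher in TG in edgeR. These were 2 of 11 tested, beside 15.2% of all genes called. TAC against sham in mRNA gave 3 higher in ntg hearts (H1f0, H1fx, H2afy2), beside 17.7% of all genes called. In TG hearts 2 were higher (H1f0, H3f3b) and 1 lower (Cenpa), beside 13.1%. The same comparison in RISC gave 2 higher (H1f0, H2afx) and 1 lower (H2afv) in ntg hearts, beside 10.9%. In RISC of TG hearts 2 were higher (H2afx, H3f3b), beside 8.56%. TAC against sham crosses the difference in sex-linked genes here as well.

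Genes of DNA replication and mitosis were measured beside the histone genes. Of 31 tested in mRNA, 16 were higher after TAC in ntg hearts and 8 in TG hearts, with medians of 0.84 and 0.33, and none was lower, where 8.41% and 6.57% of all genes were higher. Fibroblast markers were higher beside them, 4 of 7 in either genotype with medians of 1.17 and 1.10, and their part was not tested. Those called include the mitotic cyclin gene Ccna2 with 1.55 (SE 0.28) in ntg and 1.10 (SE 0.24) in TG hearts. TG against ntg gave 6 of 31 lower and none higher in TAC mRNA, where 11.8% of all genes were lower and 13.5% higher. The 6 were the genes Mcm2 to Mcm7 of the replicative helicase, from -0.27 to -0.70. In the same mRNA 5 of 16 tested histone genes were higher. In sham mRNA 1 of 31 was higher, the nucleotide reductase gene Rrm2 with 0.88 (SE 0.26), where 9.17% of all genes were higher. In RISC of TAC hearts none of 31 passed for TG against ntg in edgeR, where 15.2% of all genes were called. The 8 histone genes called there lost their calls with the length slope as a covariate.

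Of 29 factors that make and degrade histone messages tested in mRNA, 2 were higher and 4 lower in TG sham hearts, and 3 and 3 in TAC hearts, beside 18.6% and 25.3% of all genes called. The share of these factors was therefore near that of all genes or below it. Lsm11, a subunit of the U7 particle that cleaves histone messages, was higher in both (0.58, SE 0.17 in sham; 0.35, SE 0.11 in TAC). The histone gene coactivator Npat fell by 0.53 (SE 0.17) in sham hearts, and Mif4gd, which links the stem-loop to translation, fell by 0.58 (SE 0.12) in sham and by 0.37 (SE 0.08) in TAC hearts. Upf1, a helicase that takes part in the decay of histone messages, was higher in both, with 0.32 (SE 0.11) and 0.20 (SE 0.07). Of 17 histone chaperones, 2 were lower in TG sham mRNA (Atrx, Ssrp1), and 3 were higher (Anp32e, Daxx, Nap1l4) and 2 lower (Atrx, Ssrp1) in TG TAC mRNA, beside the same shares of all genes. All calls in the last 3 paragraphs are at an adjusted p below 0.05 in edgeR over all genes.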

How the data were processed

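The authors deposited raw counts of reads per gene for each of the 40 libraries. Per the submitters' processing notes, the tools were Bowtie2, TopHat2 2.0.10 and HTSeq with the mm10 build; the role of DESeq and edgeR, also named there, is not given in the sources used here. Per the labels' protocols, the reads are single and carry no strand. Rows of reads in no gene (on average 11.5% of mRNA and 4.09% of RISC reads) were left out. Gene positions and exon lengths come from the gene models deposited with the counts.

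Counts were filtered with filterByExpr, scaled with TMM and tested with edgeR 4.0.16 (quasi-likelihood, robust) in R 4.3.3, in 1 model of the 4 groups for mRNA, 1 for RISC and 1 for both. The coefficient of variation was 12.9%, 16.6% and 14.6%. RISC relative to mRNA is the difference of the log2 fold changes in the last model, which held no term for the heart. CPM are scaled to TMM library sizes within a kind of library. DESeq2 1.42.0 was an alternative, and the scripts were tested on simulated data.

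The genes described are all symbols of the rule. Those given in full are the 8 highest per kb in mRNA and in RISC, the 4 highest and 4 lowest RISC-to-mRNA ratios, and up to 6 called genes per direction and comparison. Members and lists were chosen with earlier results of these data known. The ratios of Hist1h4f and Hist1h3f, and the divergent pairs, were added after their values were seen.

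The libraries of a heart carry the same animal code in 20 of 20 cases, and their residuals correlated at a median of 0.174, above 0.1 in 15 of 20 hearts. The alternatives were another scaling, tool, filter or dispersion, a replicate block, each heart left out, only the groups compared, and the length slope or adipocyte level as covariates.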

Additional observations from a re-analysis of the deposited data

Results flagged for a closer look

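In groups of 7 hearts, a library was marked where its gap to the nearest other exceeded the 95% limit of Dixon's test (0.568 of the range for 7 values). Of 56 groups examined, 4 held such a library, where chance marks about 1 in 20. In ntg TAC hearts the RISC library of replicate 7 had 26.3 CPM of Hist1h1c, and the other 6 had 16.1 to 20.4 CPM. The mRNA library of replicate 1 of the same group had 0.765 CPM of Hist1h1d, and the others 0.241 to 0.383 CPM. The RISC library of replicate 6 had 0.963 CPM of Hist2h3c1, and the others 0.218 to 0.453 CPM. In TG TAC hearts the mRNA library of replicate 6 had 32.4 CPM of Hist1h2bc, and the others 17.5 to 22.3 CPM. The call of Hist1h2bc in TAC mRNA was kept without that heart. The call of Hist1h1c in RISC of ntg hearts after TAC was lost without any 1 of 13 hearts, replicate 7 among them.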

How the results depend on the processing

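Of 127 alternative counts of called histone genes, 111 lay within 1.5 times the count in the text, and no called gene reversed. With the adipocyte level as a covariate the count went from 7 to 2 for TG against ntg in sham mRNA, from 2 to 0 and from 1 to 2 for TAC against sham in ntg and TG mRNA, from 1 to 0 for TAC against sham in ntg RISC, and from 2 to 1 for TG against ntg in TAC relative to mRNA. With the length slope it went from 8 to 0 for TG against ntg in TAC RISC, from 1 to 0 for TAC against sham in ntg RISC, and from 2 to 1 for the relative comparison. The RISC count of TAC against sham in ntg hearts was also 0 without a filter, without robust dispersion and with only the groups compared, where the count in TG hearts was 6 and that of the relative comparison 1. A filter blind to groups gave 14 of 15 tested genes for RISC against mRNA, where 24 of 27 were called, since fewer were tested. The cause of the other changes was not tested.

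The replicate number as a block across genotypes gave 1 gene for TAC against sham in ntg mRNA and 0 in ntg RISC. These numbers were not taken as pairs: 1 of 7 mRNA and 2 of 7 RISC libraries of TAC hearts, and 0 of 3 and 2 of 3 of sham hearts, correlated best with their own number. The heart as a block in the model of both kinds of library gave 25 genes for RISC against mRNA and the counts of the text for the relative comparisons.

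When each heart was left out in turn, the counts were 3 to 7 (TG against ntg in sham mRNA), 5 to 7 (in TAC mRNA), 0 to 3 and 1 to 2 (TAC against sham in ntg and TG mRNA), 6 to 10 (TG against ntg in TAC RISC), 0 to 2 and 1 to 3 (TAC against sham in ntg and TG RISC), 23 to 26 (RISC against mRNA) and 1 to 2 (TG against ntg in TAC relative to mRNA). The RISC interaction gave 0 to 1, with 1 gene without ntg TAC replicate 7. The other interaction and the other comparisons that called no histone gene stayed at 0. Depth limits the rest: 24 of the 52 genes had fewer than 100 counts over 40 libraries, and 25 could not be tested.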
